A study of Mus musculus with 25 samples.

Results

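The lasting response to spinal cord injury (SCI) in libraries of sorted cortical cells, labelled as neurons, was examined by setting all injured wild-type (WT) libraries against the WT sham libraries. The 13 WT libraries among the 25 of the series were chosen by their labels. They comprised 9 SCI libraries, with 3 each at day 1, day 3 and day 7 after injury, and 4 sham libraries. A response was called lasting where the difference from sham had the same direction at all 3 days. The remaining 12 libraries were of the REST cKO groups (9 SCI and 3 sham) and served as the closest comparison.

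Libraries were made from cells of the sensorimotor cortex, sorted by fluorescence as neurons from 4- to 6-week-old C57BL/6 mice of either sex. All mice, the WT groups included, carried floxed alleles of *Rest* and a floxed-stop TdTomato reporter. Neurons received AAV-Syn-GFP in the WT groups or AAV-Syn-Cre in the REST cKO groups, so that GFP or Cre was driven by the synapsin promoter, and the SCI mice had a complete crush of the thoracic cord while sham mice did not. A replicate was a library. The study counts its replicates in mice, whereas the labels tie no library to an animal, so the p-values below measure the spread between these libraries, which may be partly technical.

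Cortical neurons that project to the spinal cord lose their distal axon in this injury while the cell body survives in the cortex, far from the lesion. After a peripheral nerve injury, neurons switch on transcription factors such as Jun, Atf3 and Sox11 and, with them, growth-associated genes, a response that is weak in the central nervous system. REST is a zinc-finger repressor that keeps neuronal genes silent in other cell types and is itself low in mature neurons.

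The deposited values were log2 normalized counts of 9931 genes with a symbol, running from -4.82 to 5.16, and came from the 3′ ends of transcripts. Whether they were scaled by transcript length is not stated. Read totals were not part of the values, so depth is unknown here and the spread between replicates is the only error given. The share of values under -2 was 3.85% to 12.1% in the sham libraries and 4.29% to 29.5% in the SCI libraries, a difference that an exact permutation test did not separate (p = 0.326, two-sided, 715 splits of 13 into 9 and 4). The highest share, 29.5%, was that of WT SCI day 3 replicate 5. Batch 1 held 5 SCI and 2 sham libraries and batch 2 held 3 SCI and 2 sham libraries, while batch 3 held 1 SCI library and no sham. Of the 8 WT libraries labelled female, 6 had *Xist* between 2.18 and 2.61, whereas WT SCI day 7 replicates 4 and 12 had 0.62 and 0.26, within the range of the 5 libraries labelled male (0.09 to 1.06). Their mean of 4 Y-linked genes was -0.56 and -0.03, against 0.04 to 1.77 in the libraries labelled male. In the other 6 libraries labelled female it was -1.41 to 0.21, a range that holds both values. In 140 genes the values still correlated with a sequencing component that the authors had regressed out, which is said below where such a gene is named.

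The cell type of the libraries was checked against markers. The mean level of 8 pan-neuronal markers was 0.09 to 1.62 in sham and 0.44 to 2.10 in SCI libraries, and that of 11 microglial markers was 3.10 to 3.35 in sham and 2.68 to 3.47 in SCI libraries. Microglial markers thus had the higher mean level in all 13 WT libraries, which goes against their label as neurons alone, so they are called WT libraries here and their values are those of the sorted cells as a whole. For inhibitory neurons, *Pvalb*, *Sst*, *Lhx6* and *Dlx1* were not among the genes measured, and the same was true of *Fezf2*, *Crym* and *Ldb2* for deep-layer neurons.

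To ask which genes stayed shifted after injury, the mean of the 3 SCI days was compared with sham in a linear model over all 25 libraries (limma, with the 2 sequencing components as covariates). An adjusted p-value under 0.1 was reached by 0 of 9931 genes (0%), and the smallest adjusted p-value was 0.279, shared by *Gja1* and *Wtip*. At an unadjusted p-value under 0.05 there were 600 genes, of which 335 were higher (3.37% of all genes) and 265 lower (2.67%) after SCI. The standard error of the difference had a median of 0.74 on the log2 scale over all genes. The median difference over all genes was -0.02 after the authors' scaling between libraries, so the values below are relative to that scaling.

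A single direction at all 3 days was common. It was found for 1979 genes on the higher side (19.9%) and 1949 on the lower side (19.6%). The 3 day comparisons share the 4 sham libraries, so a gene in which sham happened to be low is higher at every day. A stricter reading required an unadjusted p-value under 0.05 at each day, and 22 genes met it on the higher side (0.222%) and 2 on the lower side (0.0201%). After adjustment of the largest of the 3 p-values, 0 genes passed 0.1. The higher count was 10 in a fit of WT libraries alone and 12 without the 2 day 7 libraries with low *Xist*. Without WT sham replicate 14 it was 36, and without WT SCI day 7 replicate 7 the lower count was 9.

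Groups that did not overlap, with all 9 SCI libraries above or all below the 4 sham libraries, were seen in 16 genes on the higher side (0.161%) and 15 on the lower side (0.151%). Of these 31 genes, 9 also met the p-value at every day. Leaving out WT sham replicate 17 gave 63 genes on each side, and leaving out both day 7 libraries with low *Xist* gave 41 and 30. The plot of values by library shows the 12 genes with the lowest p-values in each direction.

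**Figure D1:**
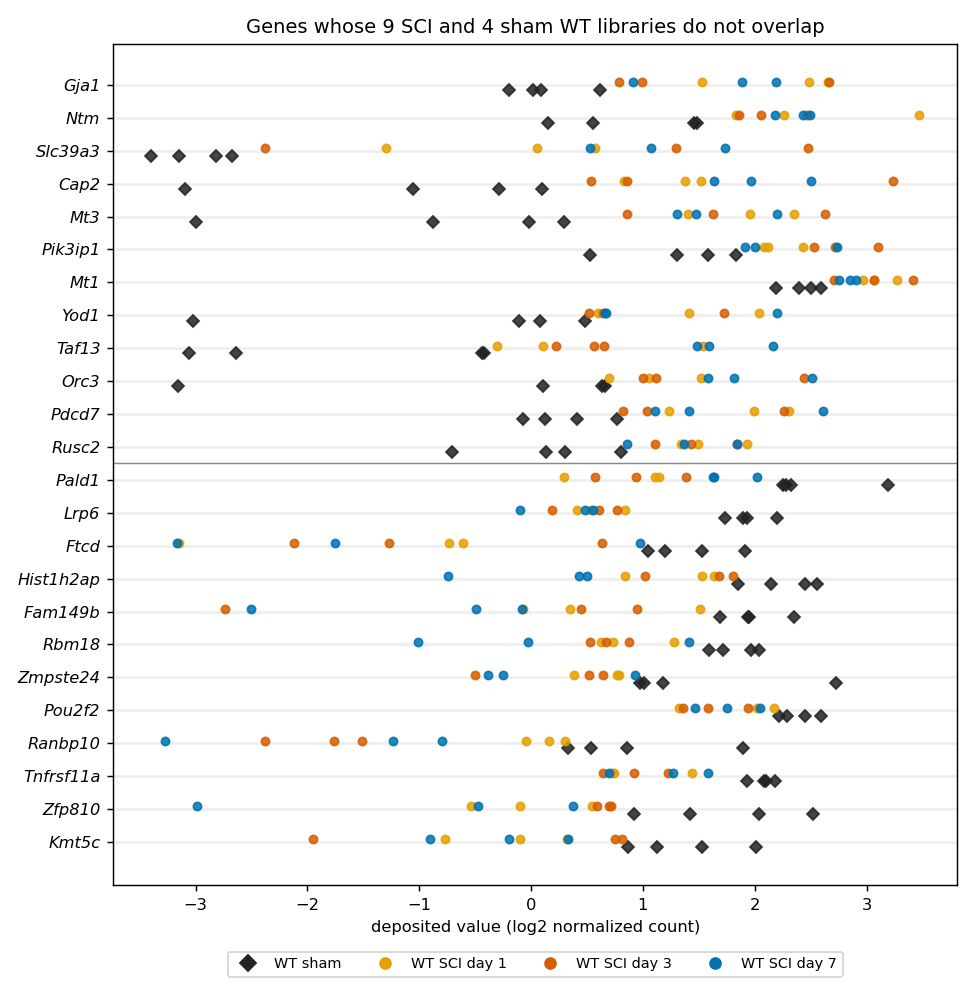
Deposited log2 normalized counts of 24 genes in the 13 WT libraries, 1 point per library, with diamonds for the 4 sham libraries and circles for the SCI libraries coloured by day. The genes were chosen for lack of overlap, with the upper 12 higher and the lower 12 lower in all 9 SCI libraries. For *Mt1* the closest pair of the groups is 2.59 in sham and 2.71 in SCI.

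Among the genes on the higher side, *Gja1* had the lowest p-value. It encodes the main connexin of astrocyte gap junctions (ENSMUSG00000050953, chromosome 10 from 56377330 to 56402513, plus strand, GRCm38). Its values were -0.20, 0.02, 0.62 and 0.09 in the sham libraries. After SCI they were 2.66, 2.48 and 1.53 at day 1, 0.99, 2.67 and 0.79 at day 3, and 2.19, 1.89 and 0.91 at day 7. Every SCI library lay above the highest sham library, with the lowest 2 of the 9 at day 3 and day 7. The fitted difference was 1.93 (standard error 0.38, 95% interval 1.15 to 2.72, adjusted p = 0.279 from limma), made of 2.29 at day 1, 1.79 at day 3 and 1.72 at day 7. It was 2.13 in batch 1 and 1.35 in batch 2. Without WT SCI day 3 replicate 22 the adjusted p-value from limma was 0.0842. In sorted bulk samples, more cells of a type and more RNA per cell cannot be told apart.

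*Wtip*, a LIM-domain protein, was named after its values were seen because it shared the smallest adjusted p-value. Its values ran from -2.98 to -1.42 in sham, and from -1.45 to 2.64 with a median of 1.59 after SCI. The groups overlapped only through WT SCI day 3 replicate 22, at -1.45. The fitted difference was 3.80 (standard error 0.79), and without that library it was 4.15 with an adjusted p-value from limma of 0.0422. Apart from *Wtip* and *Gja1*, 0 genes passed 0.1 in the alternatives tried for the pooled comparison.

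*Ntm*, neurotrimin, is a lipid-anchored adhesion molecule of neurons (chromosome 9, 28994750 to 29963141, minus strand). It was 0.55, 0.16, 1.46 and 1.48 in sham, and 1.83 to 3.47 with a median of 2.26 after SCI. The day differences of *Ntm* were nearly level, at 1.57, 1.55 and 1.62, and the pooled difference was 1.58 (standard error 0.36, adjusted p = 0.374 from limma), with 2.09 in batch 1 and 0.66 in batch 2. *Cap2*, which controls actin turnover, was -1.06, -3.09, 0.10 and -0.29 in sham and 0.54 to 3.23 after SCI, a difference of 2.94 (standard error 0.76), with 4.13 in batch 1 and 1.31 in batch 2. *Rusc2*, an adaptor in vesicle traffic, was higher by 1.45 (standard error 0.51), and *Pik3ip1*, an inhibitor of phosphatidylinositol 3-kinase, by 1.21 (standard error 0.34).

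*Slc39a3*, a zinc importer, had the largest difference of the separated genes, 3.70 (standard error 0.87). It was -3.39, -3.15, -2.68 and -2.82 in sham, all near the bottom of the scale, and -2.38 to 2.48 with a median of 0.57 after SCI. In 6 of the 16 genes on the higher side at least 1 sham library was under -2 (37.5%, against 22.3% of all genes). Sham replicate 10 gave several of these low values. It was near -3 in *Cap2*, *Mt3*, *Yod1*, *Taf13* and *Orc3*, where the other sham libraries ran up to 0.66, although *Taf13* was also low (-2.64) in sham replicate 14. Without sham replicate 10 the difference of *Yod1*, a deubiquitinase, was 1.19 in place of 2.06, and that of *Orc3*, a subunit of the origin recognition complex, was 1.28 in place of 2.25. *Taf13*, a subunit of the general factor TFIID, was higher by 2.79 (standard error 0.88), and its values correlate with a component. *Pdcd7*, a protein of the minor spliceosome, was higher by 1.39 (standard error 0.46).

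Metallothioneins, small cysteine-rich proteins that bind zinc and copper and buffer oxidants, lie side by side on chromosome 8. The 250 bases before the start of each gene are shown from RefSeq (GRCm38.p6, plus strand) because the 3 genes had the same direction at every day, with the core of the metal response element in capitals. The windows are chr8:94178839-94179088 for *Mt1*, chr8:94172368-94172617 for *Mt2* and chr8:94152357-94152606 for *Mt3*.
Mt1: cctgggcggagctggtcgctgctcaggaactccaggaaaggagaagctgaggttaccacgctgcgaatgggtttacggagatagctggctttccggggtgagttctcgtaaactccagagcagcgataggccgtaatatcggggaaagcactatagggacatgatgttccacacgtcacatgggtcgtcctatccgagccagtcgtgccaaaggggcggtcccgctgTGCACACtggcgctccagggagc
Mt2: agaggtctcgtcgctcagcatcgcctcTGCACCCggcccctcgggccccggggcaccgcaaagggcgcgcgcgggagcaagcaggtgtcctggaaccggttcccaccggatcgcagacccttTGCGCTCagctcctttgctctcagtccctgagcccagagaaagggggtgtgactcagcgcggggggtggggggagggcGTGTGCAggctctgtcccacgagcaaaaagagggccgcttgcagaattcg
Mt3: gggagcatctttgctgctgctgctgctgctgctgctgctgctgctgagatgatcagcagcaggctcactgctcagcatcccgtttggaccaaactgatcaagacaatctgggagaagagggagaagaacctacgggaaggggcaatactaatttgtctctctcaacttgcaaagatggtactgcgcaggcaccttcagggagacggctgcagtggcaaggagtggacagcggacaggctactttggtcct
The core was searched as TGCACNC and TGCGCNC on both strands. It was found once before *Mt1*, from 23 to 17 bases before the start. It was found 3 times before *Mt2*, with the first bases 223, 128 and, on the minus strand, 50 before the start, and 0 times before *Mt3*. Of 32851 mouse promoter windows of this length 21.4% hold at least 1 such match and 5.17% hold 2 or more, so the matches are a description of these windows. The windows end at the RefSeq start. GENCODE places the start at 94179082 for *Mt1* and 94172664 for *Mt2*, so windows taken there would differ. Bases past the windows were not searched, so the counts need not cover every metal response element of these genes.

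*Mt3*, the brain form, was -0.88, -3.0, 0.30 and -0.01 in sham. After SCI it was 2.36, 1.40 and 1.96 at day 1, 2.63, 0.86 and 1.63 at day 3, and 1.31, 2.19 and 1.47 at day 7. No SCI library overlapped with sham, and the difference was 2.89 (standard error 0.80, adjusted p = 0.573 from limma), or 2.09 without sham replicate 10. It was 3.92 in batch 1 and 1.29 in batch 2. *Mt1* was 2.50, 2.39, 2.59 and 2.19 in sham and 2.71 to 3.42 after SCI, a smaller but tighter difference of 0.63 (standard error 0.18), with 0.55 in batch 1 and 0.47 in batch 2. *Mt2* was 2.26 to 2.90 in sham and 2.19 to 3.34 after SCI, so that its groups overlapped, and its difference was 0.52 (standard error 0.22). In the REST cKO libraries the differences were 0.85 for *Mt3*, 0.14 for *Mt1* and -0.64 for *Mt2*. Of the 29 measured genes of the wider oxidative stress list, 14 had a positive difference, and 7 had a higher and 6 a lower value at all 3 days (19.9% and 19.6% of all genes). In this list 4 genes were higher at an unadjusted p-value under 0.05 (3.37% of all genes), the 3 metallothioneins and the glutathione transferase *Gstm1* (0.90), and 0 were lower. The median over the list was -0.01.

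On the lower side, *Lrp6* was the clearest gene in its values. It encodes a co-receptor of Wnt signalling (ENSMUSG00000030201, chromosome 6 from 134446476 to 134566965, minus strand). It was 1.93, 1.90, 2.20 and 1.73 in sham. After SCI it was 0.41, 0.84 and 0.53 at day 1, 0.18, 0.60 and 0.77 at day 3, and 0.48, -0.10 and 0.55 at day 7. The gap between the highest SCI and the lowest sham library was wider than the spread within sham. The difference was -1.50 (standard error 0.40, 95% interval -2.32 to -0.67, adjusted p = 0.483 from limma), with -1.55 in batch 1 and -1.40 in batch 2. *Ftcd*, an enzyme of histidine breakdown, was 1.19, 1.53, 1.91 and 1.04 in sham and -3.16 to 0.98 with a median of -1.27 after SCI. Its day differences were -2.99, -3.15 and -3.11. *Lrp6* and *Ftcd* were also the 2 genes on the lower side with an unadjusted p-value under 0.05 at every day.

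*Pald1*, a phosphatase-like protein best known from endothelium, was 2.25, 2.32, 3.19 and 2.28 in sham and 0.29 to 2.02 after SCI. Its difference shrank in size over the days, from -1.82 to -1.50 and -0.71, and the differences between days were not separated from the spread (adjusted p = 0.591, F test of limma). *Tnfrsf11a*, the receptor RANK, was 1.93 to 2.18 in sham and 0.64 to 1.58 after SCI, a difference of -1.15 (standard error 0.46). *Kmt5c*, which methylates histone H4, was lower by 1.71 (standard error 0.71), the histone gene *Hist1h2ap* by 1.25 (standard error 0.40) and the transcription factor gene *Pou2f2* by 0.76 (standard error 0.29). *Hist1h2ap* belongs to a family of near-identical histone genes, so its reads may be shared with the other copies. *Zmpste24*, the protease that trims prelamin A, was lower by 1.22, or by 0.75 without sham replicate 10. The remaining named genes of this group were *Fam149b* (-2.42), *Ranbp10* (-2.34), *Zfp810* (-2.03) and *Rbm18* (-1.33).

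**Figure D2:**
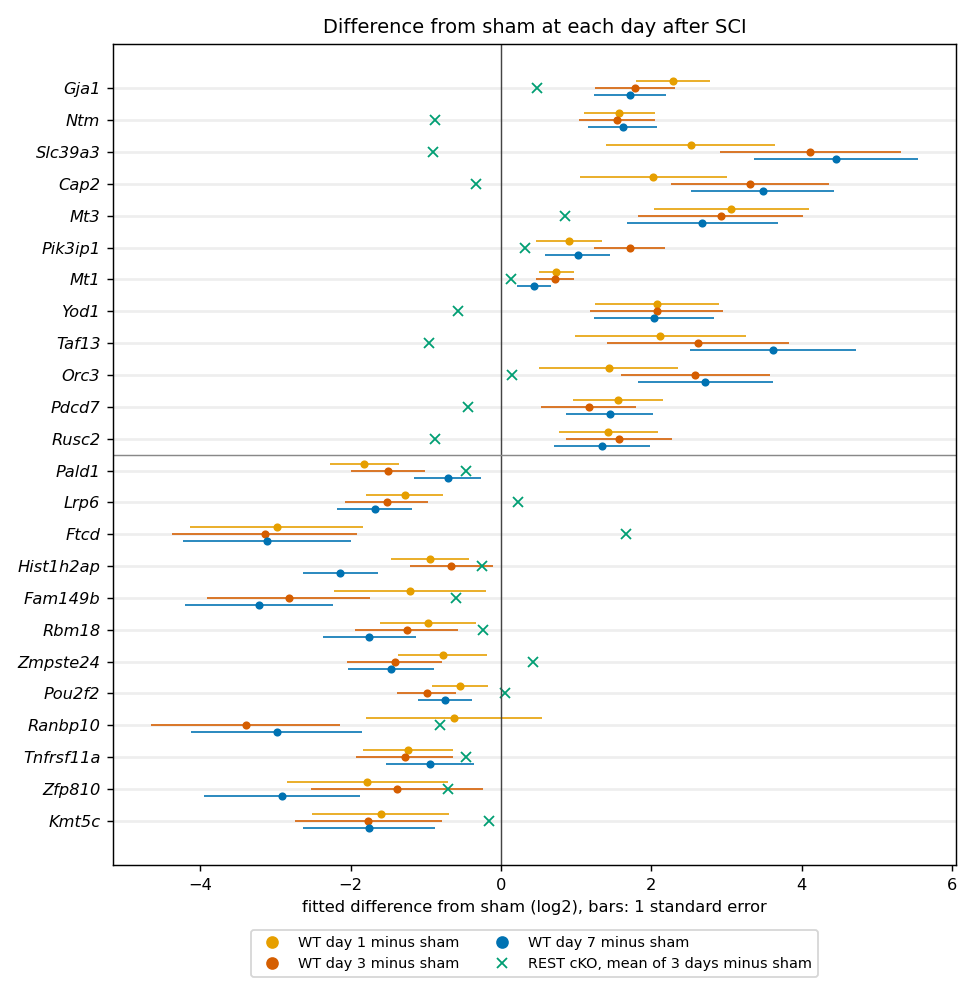
Fitted log2 difference from sham at day 1, 3 and 7 in WT libraries for the same 24 genes, with bars of 1 standard error, and the mean difference of the 3 days in REST cKO libraries as a cross. The 3 WT points share the 4 sham libraries; for *Gja1* they lie at 2.29, 1.79 and 1.72, and the cross at 0.47.

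The 22 genes on the higher side with an unadjusted p-value under 0.05 at every day were *Gja1*, *Slc1a3*, *Wtip*, *Ntm*, *Cap2*, *Mt3*, *Slc39a3*, *Yod1*, *Rusc2*, *Esam*, *Tek*, *Ptprb*, *Lama5*, *Aplp2*, *Qsox1*, *Ugdh*, *Bckdk*, *Slc22a17*, *Stambp*, *Flot2*, *Ppp4r1* and *Gstp-ps*. Some of them can be grouped by textbook role, a grouping made after their values were seen. *Tek*, *Ptprb* and *Esam* encode receptors and an adhesion protein of endothelium, and *Lama5* a laminin of the vessel wall. *Gja1* and *Slc1a3* are astrocyte genes. *Aplp2*, a relative of the amyloid precursor protein, was higher by 1.35 (standard error 0.43), with 2.03 in batch 1 and 0.24 in batch 2, and its groups overlapped, since sham replicate 17 (2.42) lay above all but 2 of the SCI libraries. *Gstp-ps* is a pseudogene whose reads may come from its parent gene.

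Genes of axon growth were described as a list of 37, of which 33 were measured. At an unadjusted p-value under 0.05, 6 were higher and 1 was lower, against 3.37% and 2.67% of all genes, and 14 had a higher value and 4 a lower value at all 3 days, against 19.9% and 19.6%. The median difference was 0.44, against -0.02 over all genes. *Mapt*, which encodes the microtubule protein tau, was 0.99, 1.59, 1.52 and 1.42 in sham. After SCI it was 2.33, 3.08 and 2.80 at day 1, 1.82, 3.33 and 2.50 at day 3, and 1.92, 1.42 and 1.29 at day 7. All libraries of day 1 and day 3 lay above sham, whereas day 7 replicates 7 and 12 lay within its range. The pooled difference was 1.08 (standard error 0.27, adjusted p = 0.483 from limma). *Gap43*, the growth cone protein of regenerating axons, was 0.09, -0.69, 0.52 and -0.02 in sham and 0.40 to 2.89 with a median of 1.25 after SCI. Its lowest SCI libraries, day 7 replicate 7 and day 3 replicate 5, overlapped with sham. The difference was 1.61 (standard error 0.50), with 2.17, 1.82 and 0.83 at the 3 days. The other genes on the higher side were the kinesin *Kif5c* (1.20), the tubulins *Tuba1a* (0.61) and *Tubb2b* (1.5) and the microtubule regulator *Stmn1* (0.63). The kinesin *Kif1a* was lower by 2.05 in the pooled comparison but did not have 1 direction at all 3 days.

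Genes of the synapse and of excitability had medians of the same sign. For synaptic vesicle release the median difference over 29 measured genes was 0.60. In this list 4 genes were higher at an unadjusted p-value under 0.05 and 0 were lower (3.37% and 2.67% of all genes). At all 3 days 14 had higher and 2 lower values (19.9% and 19.6% of all genes). The 4 were *Snap25* (0.89), a SNARE protein, *Sv2b* (1.31), a vesicle membrane protein, *Unc13b* (1.44), which primes vesicles, and *Syn1* (1.41), a synapsin. *Snap25* was 1.13 to 2.11 in sham and 1.52 to 3.35 after SCI, so its groups overlapped.

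Among 31 measured genes of glutamate and GABA receptors the median was 0.51, with 3 higher and 0 lower at the same p-value (3.37% and 2.67% of all genes). Among them were *Grin1* (2.39), the obligatory NMDA receptor subunit, whose values correlate with a component, and *Dlg4* (0.98), a scaffold protein of the postsynaptic density. Among 34 voltage-gated ion channels the median was 0.53, again with 3 higher and 0 lower, against the same shares. *Scn8a*, the sodium channel of the axon initial segment, was 0.15, 0.18, 0.22 and 0.58 in sham and 0.51 to 2.78 with a median of 2.19 after SCI, with day 7 replicate 7 alone inside the sham range. Its difference was 1.67 (standard error 0.44), with 2.24, 2.01 and 0.76 at the 3 days. *Cacnb3* and *Kcnc2*, subunits of calcium and potassium channels, were higher by 1.90 and 1.75. The medians of these lists differed between batches. They were 0.84 in batch 1 and 0.13 in batch 2 for vesicle release, 0.58 and 0.21 for receptors, 0.63 and 0.38 for channels, and 0.55 and 0.12 for axon growth. The 8 pan-neuronal markers differed by a like amount, with a median of 0.46 (0.68 in batch 1 and 0.27 in batch 2). At all 3 days 5 of them were higher and 0 lower (19.9% and 19.6% of all genes). *Snap25* is both a pan-neuronal marker and a member of the vesicle release list. The part of the neuronal share of the RNA in these lists was not tested. In the REST cKO libraries the medians were -0.57 for pan-neuronal markers, -0.40 for vesicle release, -0.15 for axon growth, -0.06 for receptors and 0.12 for channels.

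**Figure D3:**
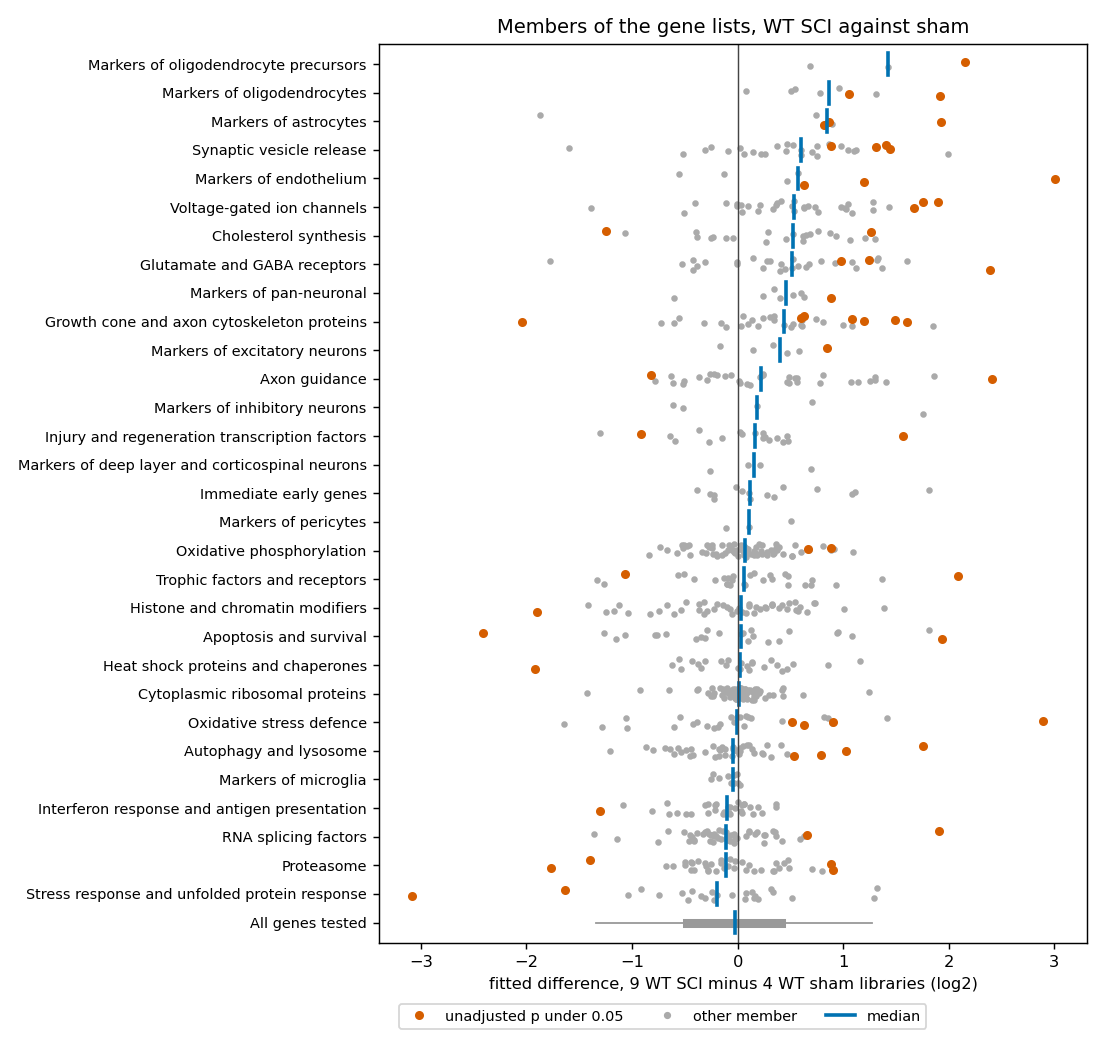
Fitted log2 difference between the 9 WT SCI and the 4 WT sham libraries for each measured member of 30 gene lists, with orange points for an unadjusted p-value under 0.05, a blue line at the median, and the 5th to 95th and 25th to 75th percentiles of all genes in the bottom row. Marker lists of astrocytes (0.84) and oligodendrocytes (0.87) have medians above those of all neuronal lists, and microglial markers stay within -0.25 and 0.03.

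Markers of astrocytes, oligodendrocytes and endothelium had medians of the same sign as the neuronal lists. Of 9 astrocyte markers 6 were measured, without *Gfap*, *Aqp4* and *Aldh1l1*, and 3 were higher at an unadjusted p-value under 0.05 and 0 lower (3.37% and 2.67% of all genes, as for the other marker lists). *Slc1a3*, the glutamate transporter GLAST, was 1.75, 2.16, 2.05 and 2.51 in sham and 2.28 to 3.44 after SCI. Its difference was 0.87 (standard error 0.22), and that of *Slc1a2*, the transporter GLT-1, was 0.82 (standard error 0.29). *Slc1a3* was 1.06 in batch 1 and 0.53 in batch 2, and *Slc1a2* was 1.07 and 0.13. The median of the list was 1.05 in batch 1 and 0.28 in batch 2. The other 3 measured markers were *Sox9* (0.90), *Aldoc* (0.74) and *S100b* (-1.87).

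The mean astrocyte marker level was 0.84 to 1.07 in sham. After SCI it was 2.58, 2.19 and 1.53 at day 1, 0.86, 1.52 and 0.96 at day 3, and 1.87, 0.56 and 0.85 at day 7. It thus lay above every sham library in 5 of 9 SCI libraries, 3 of them at day 1. In the 3 REST cKO sham libraries it was 1.80 to 2.42, above each WT sham library. The part of astrocyte RNA in the other differences was not tested.

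All 7 endothelial markers were measured, and 3 were higher and 0 lower. Of the 7, 5 had a positive difference, and 5 were higher and 1 lower at all 3 days (19.9% and 19.6% of all genes). The median was 0.58, with 0.58 in batch 1 and 0.37 in batch 2. *Tek*, the angiopoietin receptor, was -0.51, -2.99, -1.33 and -1.38 in sham and -0.61 to 2.70 with a median of 1.30 after SCI, a difference of 3.01 (standard error 0.78). *Slco1a4*, a transporter of brain vessels, was higher by 1.20 and the VEGF receptor *Flt1* by 0.63, while *Cdh5*, the cadherin that defines endothelium, was -0.55 and *Cldn5* 0.47. The mean endothelial level lay above every sham library in 7 of 9 SCI libraries. Of 8 oligodendrocyte markers 2 were higher, among them *Mobp* (1.92), a myelin protein, and the median was 0.87. The mean level of these markers was at most 0.21 in sham and reached 2.74 and 1.84 in day 1 replicates 8 and 11. Without sham replicate 10 the difference of *Mobp* was 1.24, and that of *Olig1*, the gene with such a p-value among 3 measured markers of oligodendrocyte precursors, was 1.42 in place of 2.16. All 11 microglial markers were measured and 0 had an unadjusted p-value under 0.05 in limma's test or passed after adjustment, with a range from -0.25 for *C1qb* to 0.03 for *Aif1*.

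**Figure D4:**
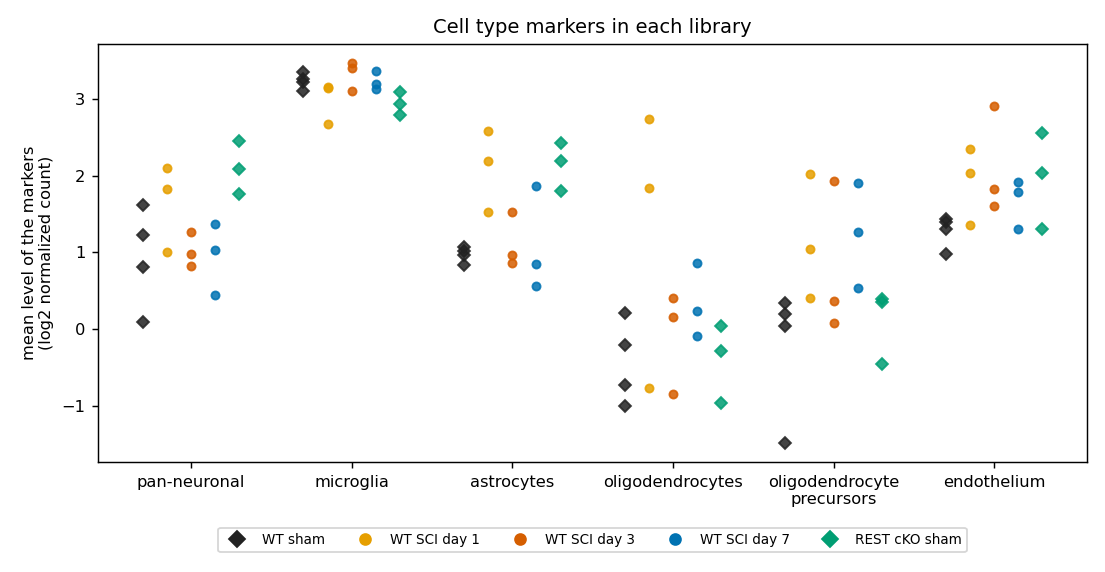
Mean log2 level of the measured markers of 6 cell types in each WT library and in the REST cKO sham libraries, 1 point per library. Microglial markers lie at 2.68 to 3.47 in the WT libraries, above the pan-neuronal markers in each, and the 4 WT sham libraries have astrocyte levels of 0.84 to 1.07 against 1.80 to 2.42 in REST cKO sham.

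Of 81 cytoplasmic ribosomal proteins, 0 differed at an unadjusted p-value under 0.05 in limma's test and 0 after adjustment, with a median of 0.02. For the counts in the lists that follow, the shares of all genes at this p-value are 3.37% higher and 2.67% lower. Of 76 genes of oxidative phosphorylation 2 were higher, *Cox7a2* (0.66, a subunit of cytochrome oxidase) and *Atp5f1* (0.88, of ATP synthase), and the median was 0.07. *Cox7a2* was 0.37 without sham replicate 3. Of 40 proteasome genes 2 were higher, *Psmc3* (0.91) and *Psmd12* (0.88), and 2 lower, *Psmc1* (-1.77) and *Psmc5* (-1.40). Under alternatives other than leaving out 1 library, *Psmc1* ran from -2.57 to -1.06 and *Psmc5* from -1.98 to -0.72. Of 46 genes of autophagy and the lysosome 4 were higher and 0 lower, against 3.37% and 2.67% of all genes. They were the autophagosome proteins *Map1lc3a* (1.03) and *Gabarapl1* (0.79, or 0.43 without sham replicate 3), the proton pump subunit *Atp6v1e1* (1.75, or 0.78 without sham replicate 3) and the cargo receptor *Sqstm1* (0.53, standard error 0.23), which was 1.68 ± 0.12 (SD, n = 4) in sham and 2.20 ± 0.21 (SD, n = 9) after SCI.

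In the stress and unfolded protein response list, 25 of 27 genes were measured, 0 were higher and 2 were lower, against 3.37% and 2.67% of all genes, and the median was -0.19. *Asns*, the asparagine synthetase induced by amino acid shortage, was 1.45, 2.64, 1.66 and -0.71 in sham and -3.83 to 0.73 with a median of -1.95 after SCI, a difference of -3.09 (standard error 0.94). Its groups overlapped through sham replicate 17, which was low at -0.71. *Ppp1r15a*, which restores translation after stress, was lower by 1.63 (standard error 0.71). Of 25 measured genes of apoptosis and survival 1 was higher and 1 lower. The cell cycle inhibitor *Cdkn1a* was higher by 1.93, with 3.10 in batch 1 and -0.02 in batch 2, and by 1.03 without sham replicate 10, while *Birc2*, an inhibitor of apoptosis, was lower by 2.41. Of 37 measured axon guidance genes, the receptor *Epha4* was higher by 2.41, or by 1.51 without sham replicate 10, and the semaphorin receptor *Plxna2* was lower by 0.82.

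In the remaining lists, at most 2 genes differed at an unadjusted p-value under 0.05. They were *Hmgcs1* (1.26) and *Ebp* (-1.25, without 1 direction at all 3 days) of cholesterol synthesis, whose median was 0.53, the heat shock gene *Dnajb4* (-1.92), the histone deacetylase *Hdac3* (-1.90), the antiviral gene *Oas1a* (-1.30), *Fgfr3* (2.09, or 1.39 without sham replicate 10) and the kinase *Rps6kb1* (-1.07) among trophic signalling genes, and *Celf4* (0.66) and *Snrpg* (1.90, or 0.86 without sham replicate 10) of splicing. Among neuron subtype markers, *Nrgn* of excitatory neurons was higher by 0.85, and 0 of 4 deep-layer and 0 of 5 inhibitory markers reached this p-value in limma's test or passed after adjustment.

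*Rest* and the 5 transcription factors of peripheral regeneration were examined next, because the study centres on them. In each of these 6 genes a correlation with a sequencing component is still found in the values, against 140 of all 9931 genes. Their values may thus have been processed unlike those of most genes, which was not tested. Of the 6, 0 passed the adjusted threshold. *Rest* (chromosome 5, 77265491 to 77286432, plus strand) was -0.55, -0.26, -0.39 and -1.55 in sham. After SCI it was -1.35, 0.71 and 0.27 at day 1, 1.64, 2.88 and 0.56 at day 3, and 0.26, 2.30 and 2.74 at day 7. Of the 9 SCI libraries, 8 lay above every sham library, and day 1 replicate 1 did not. The difference was 1.57 (standard error 0.69, 95% interval 0.14 to 3.00, adjusted p = 0.793 from limma), with 1.04, 1.63 and 2.04 at the 3 days. In the 12 REST cKO libraries *Rest* was -2.65 to -0.04, and the sources used here do not say whether the 3′ reads lie in the deleted part.

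The pooled differences of *Jun* and *Stat3* had intervals that include 0. The difference of *Jun* was 0.24 (95% interval -0.21 to 0.70) and that of *Stat3* was 0.29 (95% interval -0.14 to 0.73). The value of *Jun* was 0.14 without sham replicate 3 and also without day 3 replicate 16, and without the components it was 0.06 for *Jun* and 0.19 for *Stat3*. Without the libraries of day 3 it was 0.11 for each. By day, *Jun* was -0.07, 0.47 and 0.33. *Stat3* was -0.06, 0.65 and 0.29, and its day 3 value alone had an unadjusted p-value under 0.05 in limma's test. *Atf3* was 1.29, 0.29, 0.66 and 0.29 in sham and -3.10 to 1.02 with a median of -1.31 after SCI, a difference of -1.30 (95% interval -2.83 to 0.22) with a negative sign at each day. *Sox11* (-0.37, 95% interval -1.98 to 1.24) and *Smad1* (-0.15, 95% interval -1.85 to 1.55) differed in sign between days. Leaving out 1 library at a time, *Sox11* ran from -0.69 to -0.21. It was positive under 1 of the alternatives, and *Smad1* was positive under 5. Of the 19 measured genes in the wider list of injury transcription factors 1 was higher, *Rest*, and 1 lower, *Hif1a* (-0.91), the oxygen-regulated factor. The difference of *Rest* was 1.12 in batch 1 and 2.93 in batch 2. Of 15 measured immediate early genes, 0 had an unadjusted p-value under 0.05 in limma's test and 0 passed after adjustment.

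**Figure D5:**
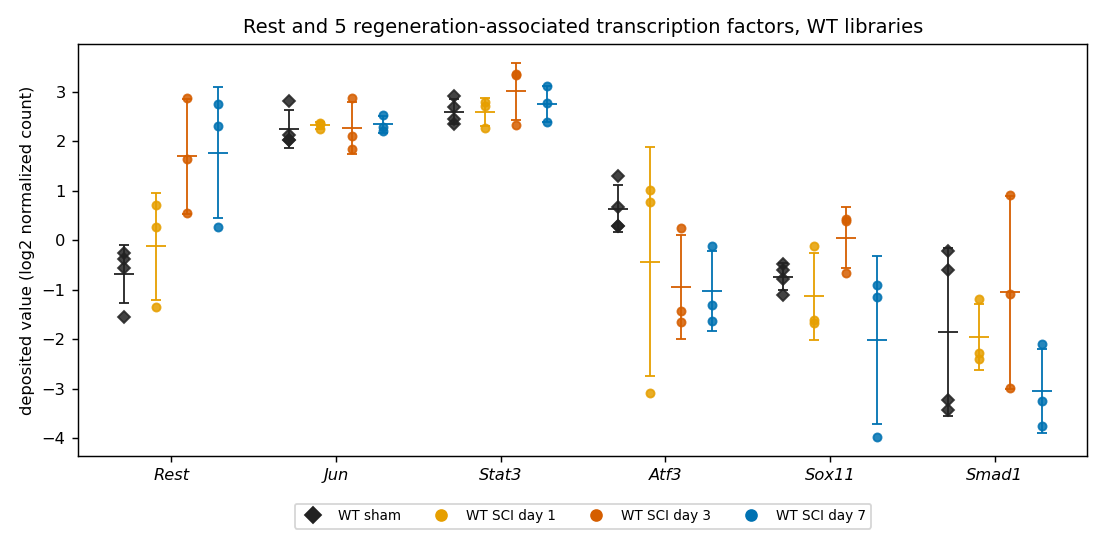
Deposited log2 normalized counts of *Rest* and 5 transcription factors in the WT libraries, 1 point per library, with the mean as a line and the SD as bars for each group (sham n = 4, each SCI day n = 3). *Rest* is above its highest sham value of -0.26 in 8 of 9 SCI libraries, while *Jun* and *Stat3* overlap between groups.

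Whether the response was level over time was tested by comparing the 3 SCI days with each other. An unadjusted p-value under 0.05 was found for 941 genes (9.48%) and 0 passed after adjustment, with a smallest adjusted p-value of 0.145 (F test of limma). Without WT SCI day 7 replicate 4, 22 genes passed. Genes named above that had an unadjusted p-value under 0.05 for a difference between days were *Mapt* (1.46, 1.49 and 0.31), *Scn8a*, *Psmc5*, *Hist1h2ap* and the astrocyte markers *Aldoc* and *S100b*.

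The REST cKO libraries gave a comparison that shares no library with that of WT. Their mean of 3 SCI days differed from their sham at an unadjusted p-value under 0.05 in 551 genes (5.55%), and 1 passed after adjustment. It was *N4bp2l2*, which was higher by 3.66 (adjusted p = 0.0179 from limma) and was -0.20 in WT. Its values were -2.88, 0.71 and -1.13 in REST cKO sham, with a mean of 1.97 in REST cKO SCI and 1.90 in WT sham. The count was 0 without REST cKO sham replicate 6, without REST cKO SCI day 1 replicate 25 and without the variance trend. Across genes the differences of the 2 genotypes had a Pearson r of -0.08 and a Spearman rho of -0.08 over 9931 genes, which are not independent replicates. Of the 600 genes with an unadjusted p-value under 0.05 in WT, 274 had the same sign in REST cKO (45.7%), against 47.3% of all genes. For the 16 separated genes on the higher side the REST cKO difference was positive in 8 (50%). For the 15 on the lower side it was negative in 10 and positive in 5 (33.3%). Of all genes, 56.5% had a positive difference in REST cKO.

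The difference between the genotypes in the response was tested as an interaction. It had an unadjusted p-value under 0.05 in 541 genes (5.45%), and 0 passed after adjustment (smallest adjusted p = 0.347 from limma). That value was shared by *Mapt* (1.08 in WT and -0.82 in REST cKO), *Ntm* (1.58 and -0.88) and *N4bp2l2*. The sham libraries of the genotypes also differed in these genes. *Mapt* was 1.38 ± 0.27 (SD, n = 4) in WT sham and 2.51 in REST cKO sham on average, and *Ntm* was 0.91 ± 0.66 (SD, n = 4) and 2.20. Pan-neuronal markers had a mean level of 1.76 to 2.45 in REST cKO sham, above every WT sham library (0.09 to 1.62), and microglial markers had 2.79 to 3.09, below every WT sham library (3.10 to 3.35). Their part in these differences was not tested. The REST cKO sham mean lay above the WT sham mean in all 16 separated genes on the higher side and in 320 of the 335 genes that were higher at an unadjusted p-value under 0.05 (95.5%), against 51.3% of all genes. Part of this follows from the choice of genes, since a gene with a low WT sham mean is more likely to be listed as higher after SCI.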

How the data were processed

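RNA-seq of sorted cortical cells, labelled as neurons, was analysed in 25 libraries of 8 groups taken from the sample labels. The authors deposited log2 normalized counts, made by aligning reads to GRCm38 with STAR, counting with Salmon and tximport, scaling with DESeq2's geometric means, removing batch effects with RUV, dropping genes without counts in most samples and regressing out sequencing components. The base of the logarithm is taken from the paper's plots. Columns of the authors' own comparisons (log2 fold changes, p-values and adjusted p-values) were not used. Of 9955 rows, 24 without a symbol were left out. The paper gives an average depth for the cortical libraries but no read totals of single libraries, so the depth of each is unknown.

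A linear model with 8 group means and 2 components was fitted by limma 3.58.1 (R 4.3.3) using empirical Bayes moderation and a trend of the variance with the mean. P-values were adjusted by the Benjamini-Hochberg method over 9931 genes, with a threshold of 0.1. The model was tested on simulated data. Named genes were the 12 per direction with the lowest p-value among genes without overlap and with 1 direction at 3 days, *Rest* and 5 factors, and up to 3 genes per list. These 3 were limited to an unadjusted p-value under 0.05 after the data were seen. Members, lists and tests were chosen with earlier results of these data known, and *Wtip*, the other genes separated or past p at every day, further list members and *N4bp2l2* after their values were seen. Alternatives were no components, terms for batch, sex or the share of low values, WT libraries alone, library weights, a mean of at least 0, no trend, quantile normalization, genes free of a component, a threshold of 0.05, and leaving out each library or day. Gene positions are from GENCODE M21. Some list members are not reported here.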

Additional observations from a re-analysis of the deposited data

Results flagged for a closer look

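Each named gene was checked in the 4 sham and the 9 SCI libraries of WT for a library far from the rest, as was the share of values under -2, and 13 of 152 groups of values had one, where chance gives about 1 in 20. Sham replicate 10 was apart from the other sham libraries in *Epha4* (-2.99), *Orc3* (-3.16), *Yod1* (-3.02) and *Zmpste24* (2.72). Among the other sham libraries, replicate 14 was apart in *Pald1* (3.19), and replicate 17 in *Jun* (2.82) and *Scn8a* (0.58). Among the SCI libraries, day 7 replicate 12 was apart in *Cdkn1a* (-1.90) and *Sox11* (-3.98), day 7 replicate 7 in *Oas1a* (2.6) and *Zfp810* (-2.99), and day 1 replicate 1 in *Ntm* (3.47). Day 3 replicate 5 was apart in its share of values under -2 (29.5%).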

How the results depend on the processing

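No gene passed in the pooled comparison under any alternative except without WT SCI day 3 replicate 22, the only WT library of batch 3, where *Wtip* and *Gja1* passed (counts of 0 to 2, and 0 to 2 for lasting genes on the higher side). Of 75 named genes, 73 kept their direction under every alternative. *Sox11* was 0.16 in WT libraries alone. *Smad1* ran from -0.71 to 0.41 without 1 library, with 0.28 and 0.41 without sham replicate 14 or 17, 0.36 without day 3 replicate 16, 0.04 without day 7 replicate 4 and 0.52 without day 7. Leaving out 1 library at a time gave 16 to 36 genes higher and 1 to 9 lower at every day, 19 to 63 higher and 17 to 63 lower without overlap, 0 to 22 between days, 0 to 11 in REST cKO and 0 to 1 in the interaction; fewer libraries make separation easier by construction. Without the 2 day 7 libraries with low *Xist*, an alternative chosen after seeing the data, the counts were 12 higher and 4 lower at every day, 17 between days, and 41 and 30 without overlap. Genes lower at every day numbered 4 with a sex term, 6 with a term for low values, 7 with library weights, 5 without trend and 4 after quantile normalization, and genes higher at every day numbered 10 in WT libraries alone. A mean of at least 0 gave 1298 genes with 1 direction on the lower side, 1 gene between days and 16 in REST cKO. Dropping the components gave 1 gene between days and 5 in REST cKO. The REST cKO count was 5 with a sex term, 3 with a term for low values, 15 with library weights, 0 without trend and 2 after quantile normalization, and library weights gave 2 genes in the interaction. The cause of these moves was not tested. The replicate numbers are serial numbers of the libraries and cannot show pairs, so no paired analysis was run. The depth of each library is unknown, and the median standard error of 0.74 limits what could pass.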
